A study of Homo sapiens with 12 samples.

Results

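Cells of the HLE line, which derives from a human hepatocellular carcinoma, were compared with and without the transcription factor ATF4 while they were exposed to Sorafenib (Srf), an oral multikinase inhibitor used against liver cancer. The comparison rests on the 2 libraries labelled siATF4 with Sorafenib and the 2 labelled siCtr with Sorafenib, 4 of the 12 libraries of the series, and on the genes that reached 1 CPM (reads per 1e6 reads on genes) in at least 2 of the 12 libraries, which were 13515 of 26258 genes. Cells of the first group had been transfected with siRNA against *ATF4* (siATF4) and those of the second with a control siRNA (siCtrl). Both were given 5 µM Sorafenib according to the labels, in medium with serum and glutamine, and no time is given there. The study's own text gives another dose and a treatment time, and it speaks of more replicates than the libraries analysed here, and the labels were followed. The other 8 libraries came from cells with siRNA against YAP and TAZ, or from cells given the vehicle DMSO, with 2 libraries in each group. RNA was enriched for poly(A) and sequenced. All values come from 1 cell line, a transient siRNA knockdown leaves some of the targeted mRNA, and nothing in the labels says whether the 2 libraries of a group came from separate cultures. P values therefore measure the spread between these libraries, which may be technical.

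ATF4 is a basic leucine zipper (bZIP) factor whose mRNA is translated more when the initiation factor eIF2α is phosphorylated, an arm of gene control called the integrated stress response. It pairs with partners of the C/EBP family on composite elements in promoters and is known to turn on genes for amino acid synthesis and import, for the charging of tRNAs, for glutathione metabolism and for its own feedback inhibitors. In liver cancer cells its target *SLC7A11*, the cystine carrier of system xc-, supplies cysteine for glutathione, which limits the lipid peroxidation that drives ferroptosis. The comparison asks which transcripts of Sorafenib-treated cells depended on ATF4, in either direction.

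The depth of the 4 libraries was 46721717 to 52739295 reads on genes, within the range of 41408348 to 53619732 over all 12, and 1 read was worth about 0.02 CPM. The 2 libraries of each group lay next to each other on the first 3 principal components, and no library stood apart from its partner. Mature hepatocyte genes were largely silent in these cells. Among 20 hepatocyte markers, 15 stayed under the filter, *ALB* for albumin at no more than 0.0214 CPM and *AFP* for alpha-fetoprotein at no more than 0.039 CPM in any of the 12 libraries. Epithelial and mesenchymal markers were both present, with *KRT8* at 1575 to 2558 CPM and *VIM* at 1952 to 2916 CPM over the 4 libraries. Of 10 leukocyte and endothelial markers, 9 were under the filter, the exception being *CD68*, a lysosomal protein.

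Loss of ATF4 under Sorafenib lowered 2525 of the 13515 genes tested (18.7%) and raised 1386 (10.3%), where the criteria for a call were an absolute log2 change of at least 0.58 and a two-sided P, before adjustment, under 0.05. The changes were fitted with limma on log2(CPM + 0.5), a scale that understates the change of genes near 0.5 CPM. Below, the genes named in each list are from the 4 largest called changes averaging 1 CPM or more, and every other member named, called or not, was chosen after its values were seen. Counts of calls in Sorafenib by list are to be read beside the 18.7% lowered and 10.3% raised of all genes tested. The same 2525 and 1386 genes passed with Benjamini-Hochberg adjusted P values. In each of them the 2 siATF4 libraries did not overlap the 2 siCtrl libraries. This adds little, since the criteria for a call nearly require it, and the share without overlap over all genes tested is not given. Falls were both more frequent and deeper than rises. A change of at least 1 on the log2 scale was seen in 1189 lowered and 295 raised genes, one of at least 2 in 155 and 28 genes, and one of at least 3 in 19 and 3 genes. The median over all genes tested was -0.01, with quartiles at -0.41 and 0.31. Lowered genes made up 64.6% of the calls, a share that dropped to 51.5% (2024 lowered and 1903 raised) when the log2 values were quantile normalized. In bulk RNA, fewer cells that express a gene and less of its RNA per cell cannot be told apart.

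The lowered genes together took 152249 CPM in siCtrl cells and 77191 CPM in siATF4 cells. The raised genes went from 66246 to 119580 CPM. The share of falls differed with the level in siCtrl cells, which is itself part of the comparison. Genes under 1 CPM there passed the filter mostly through other groups, which favours rises among them. The shares by level are therefore a description and no result about level. Of the 423 genes under 1 CPM in siCtrl cells, 19.9% were lowered and 21.8% raised. Of the 3067 genes at 1 to 10 CPM in siCtrl cells, 30.9% were lowered and 11.2% raised, and of the 2267 genes above 100 CPM, 14.1% were lowered and 6.44% raised.

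**Figure D1:**
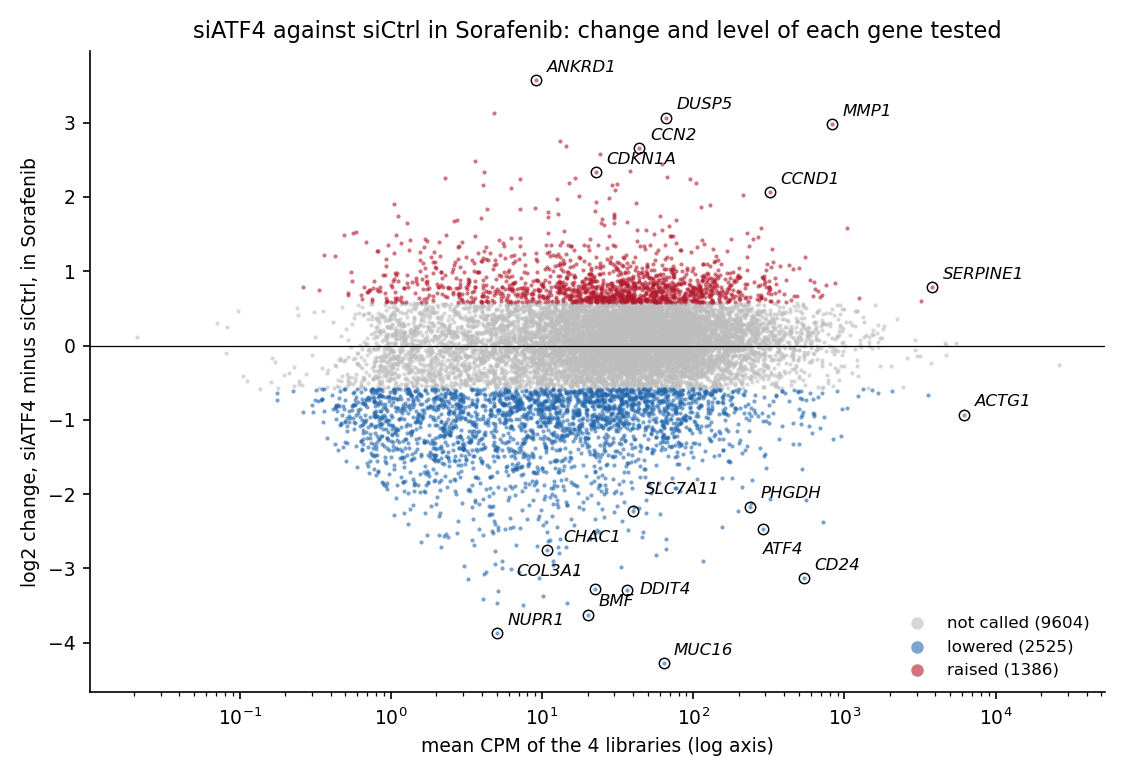
Log2 change of each of the 13515 genes tested (siATF4 minus siCtrl, both in Sorafenib, vertical axis) against its mean CPM over the 4 libraries (log axis); blue points were lowered, red points raised and grey points not called. Lowered genes reach below -4 with *MUC16*, raised genes reach 3.58 with *ANKRD1*, and most of the deepest falls lie under 100 CPM.

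The targeted gene itself was reduced in both knockdown libraries. *ATF4* (Entrez 468, GRCh37 chromosome 22, 39915700 to 39918688, plus strand) was at 484 and 492 CPM in siCtrl cells and at 84.6 and 90.6 CPM in siATF4 cells, a log2 change of -2.47 ± 0.044 (SE; limma, Benjamini-Hochberg adjusted P = 1.35e-12). The groups did not overlap, and the knockdown left a level close to that in DMSO, where siATF4 cells held 96.2 and 101 CPM against 248 and 249 CPM in siCtrl cells.

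The promoters of 4 lowered genes are shown because they hold the core of the ATF4 composite element, and the sequence around it can be read beside the change of the gene. The windows are from RefSeq on GRCh38.p14, written 5′ to 3′ on the gene's strand, with the letters that match TGATGNAA on either strand in capitals. *CHAC1* encodes a glutathione-degrading enzyme (chr15:40953242-40953289, plus strand, 209 bases before the start), *ASNS* asparagine synthetase (chr7:97872449-97872496, minus strand, 68 bases before), *ATF3* a stress-induced bZIP repressor (chr1:212565196-212565243, plus strand, 191 bases before) and *HERPUD1* a component of endoplasmic reticulum (ER)-associated degradation (chr16:56931946-56931993, plus strand, 176 bases before).
CHAC1: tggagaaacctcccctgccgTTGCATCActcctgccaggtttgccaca
ASNS: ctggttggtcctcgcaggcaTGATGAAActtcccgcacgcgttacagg
ATF3: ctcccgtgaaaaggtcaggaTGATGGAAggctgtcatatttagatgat
HERPUD1: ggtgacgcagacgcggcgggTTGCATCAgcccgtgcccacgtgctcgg

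These 4 genes are examples and do not describe the lowered genes at large. Promoter windows of 250 bases before to 50 after the start were matched for 10711 of the genes tested, and 1.70% of them held TGATGNAA on either strand. The share was 2.06% (40 of 1945) among lowered genes and 2.57% (28 of 1090) among raised genes, and 3.67% over all 27305 promoters of the table. Among genes lowered by at least 1 it was 1.68% (15 of 892), near the share of all tested promoters, and among those lowered by at least 2 it was 4.50% (5 of 111). The stricter TGATGCAA was in 0.486% of tested promoters, in 0.668% of those of lowered genes, in 0.561% (5 of 892) of those of genes lowered by at least 1 and in 3.604% (4 of 111) of those of genes lowered by at least 2, namely *CHAC1*, *SERPINA6*, *KCNT2* and *PLIN4*. A match is a string of letters and no evidence of binding, and a window without one says nothing about elements outside it. *SLC7A11* had no window in the table.

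Of 21 tested bZIP factors and feedback regulators of the stress response, 10 were lowered (47.6%, beside 18.7% of all genes tested), 2 raised and 9 not called, and the median was -0.57 against -0.01 over all genes tested. *NUPR1*, a small stress-induced chromatin protein, was at 9.82 and 9.91 CPM in siCtrl cells and at 0.227 and 0.193 CPM in siATF4 cells, one of the largest falls in the data (-3.87 ± 0.11, SE; limma, adjusted P = 2.14e-11). Its size depends on the pseudocount, and over all settings tried it lay between -5.54 and -3.17. *DDIT4*, an inhibitor of the growth kinase mTORC1 also called REDD1, was at 65.4 and 67.3 CPM against 6.56 and 6.14 CPM (-3.29 ± 0.080, SE).

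*CHAC1* (GRCh37 chromosome 15, 41245160 to 41248710, plus strand) was at 18 and 20.3 CPM in siCtrl cells and at 2.43 and 2.38 CPM in siATF4 cells. This was a change of -2.76 ± 0.14 (SE; limma, adjusted P = 1.26e-09). *CEBPD*, a C/EBP family factor, was at 9.98 and 9.85 CPM against 2.28 and 1.67 CPM (-2.09). *ATF3*, whose own promoter is shown above, was at 35.8 CPM in both siCtrl libraries and at 19.9 and 19.2 CPM in both siATF4 libraries, a smaller fall of -0.86 ± 0.059 (SE; limma, adjusted P = 2.63e-08). In all of these the siATF4 libraries were the low ones and the groups were separate, as in every lowered gene.

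The other lowered members of this list lie outside the naming rule and were chosen after their values were seen. *TRIB3*, a pseudokinase that inhibits ATF4, was at 112 and 121 CPM against 57.8 and 62.9 CPM (-0.94), *HERPUD1* changed by -0.71, *KLHL24* by -1.15 and the bZIP repressor *JDP2* by -1.72. *SESN2*, a leucine sensor, changed by -0.64, and by -0.55, short of the threshold, without the siATF4 library numbered 1. *PPP1R15A*, also called GADD34, the phosphatase subunit that dephosphorylates eIF2α, moved the other way, from 52.8 and 57.3 CPM to 193 and 217 CPM (1.89). *DDIT3*, which encodes CHOP, had a log2 change of 0.32, *CEBPB* of 0.11, *ATF5* of -0.36 and *CEBPG* of -0.03, none of them called. Among 14 eIF2α kinases, eIF2 and eIF2B subunits and partners, 2 were raised and none lowered: *EIF2S1*, the α subunit itself (0.82), and *EIF2B5* (0.69).

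Amino acid supply was touched gene by gene and not as a block. In serine and one-carbon metabolism, 4 of 14 genes were lowered (28.6%) and 2 raised (14.3%), with a median of 0.09. The falls included the first steps of serine synthesis. *PHGDH*, phosphoglycerate dehydrogenase, was at 383 and 390 CPM in siCtrl cells and at 84.8 and 86.3 CPM in siATF4 cells (-2.17 ± 0.061, SE; limma, adjusted P = 2.04e-11). *PSAT1*, the transaminase that follows it, was at 228 and 227 CPM against 88.7 and 82.3 CPM (-1.41). *PSPH*, the last enzyme of serine synthesis, had a change of 0.19 and *SHMT2* of 0.10, neither called, and thymidylate synthase *TYMS* rose by 0.94.

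Of 17 other amino acid enzymes, 5 were lowered (29.4%) and 1 raised (5.88%), with a median of -0.23. *ASNS* was at 120 and 124 CPM against 32.8 and 31.3 CPM (-1.91 ± 0.12, SE; limma, adjusted P = 8.75e-09). *CBS*, cystathionine beta-synthase, the entry to cysteine synthesis from homocysteine, was at 95.6 and 104 CPM against 13.8 and 13.7 CPM (-2.81). Its partner *CTH*, which releases the cysteine, had a change of -0.05 and was not called. *PYCR3*, an enzyme of proline synthesis, changed by -1.10.

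Of 15 carriers of amino acids at the plasma membrane, 7 were lowered (46.7%, beside 18.7% of all genes tested) and none raised, with a median of -0.33. *SLC7A11* (Entrez 23657, GRCh37 chromosome 4, 139085251 to 139163503, minus strand) was at 64.5 and 67.1 CPM in siCtrl cells and at 14.2 and 13.1 CPM in siATF4 cells, a change of -2.23 ± 0.14 (SE; limma, adjusted P = 1.40e-08). The antisense transcript *SLC7A11-AS1*, named after its values were seen, was at 8.25 and 9.02 CPM against 17.3 and 16.5 CPM (0.93), so the sense and antisense genes moved in opposite directions. Whether the authors' counting used strand is not given in the sources used here.

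The glycine carrier *SLC6A9* changed by -2.29, the taurine carrier *SLC6A6* by -2.23, from 333 and 318 to 70.4 and 67.5 CPM, and the creatine carrier *SLC6A8*, written into the same list, by -1.82. Among carriers chosen after their values were seen, the leucine exchanger *SLC7A5* changed by -1.61 and *SLC1A4* by -1.36, while *SLC3A2*, the heavy chain that partners both *SLC7A11* and *SLC7A5*, had a change of 0.20 and was not called. The tRNA synthetases barely moved. Of 20 cytosolic enzymes 1 was lowered (5%) and 3 raised (15%), with a median of -0.12. Of 17 mitochondrial enzymes 2 were raised (11.8%) and none lowered. *CARS1* was the lowered one, at -0.61, and fell short of the threshold at -0.57 without the siCtrl library numbered 2. *FARSA* (0.73), *VARS1* (0.68) and *FARSB* (0.64) rose.

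**Figure D2:**
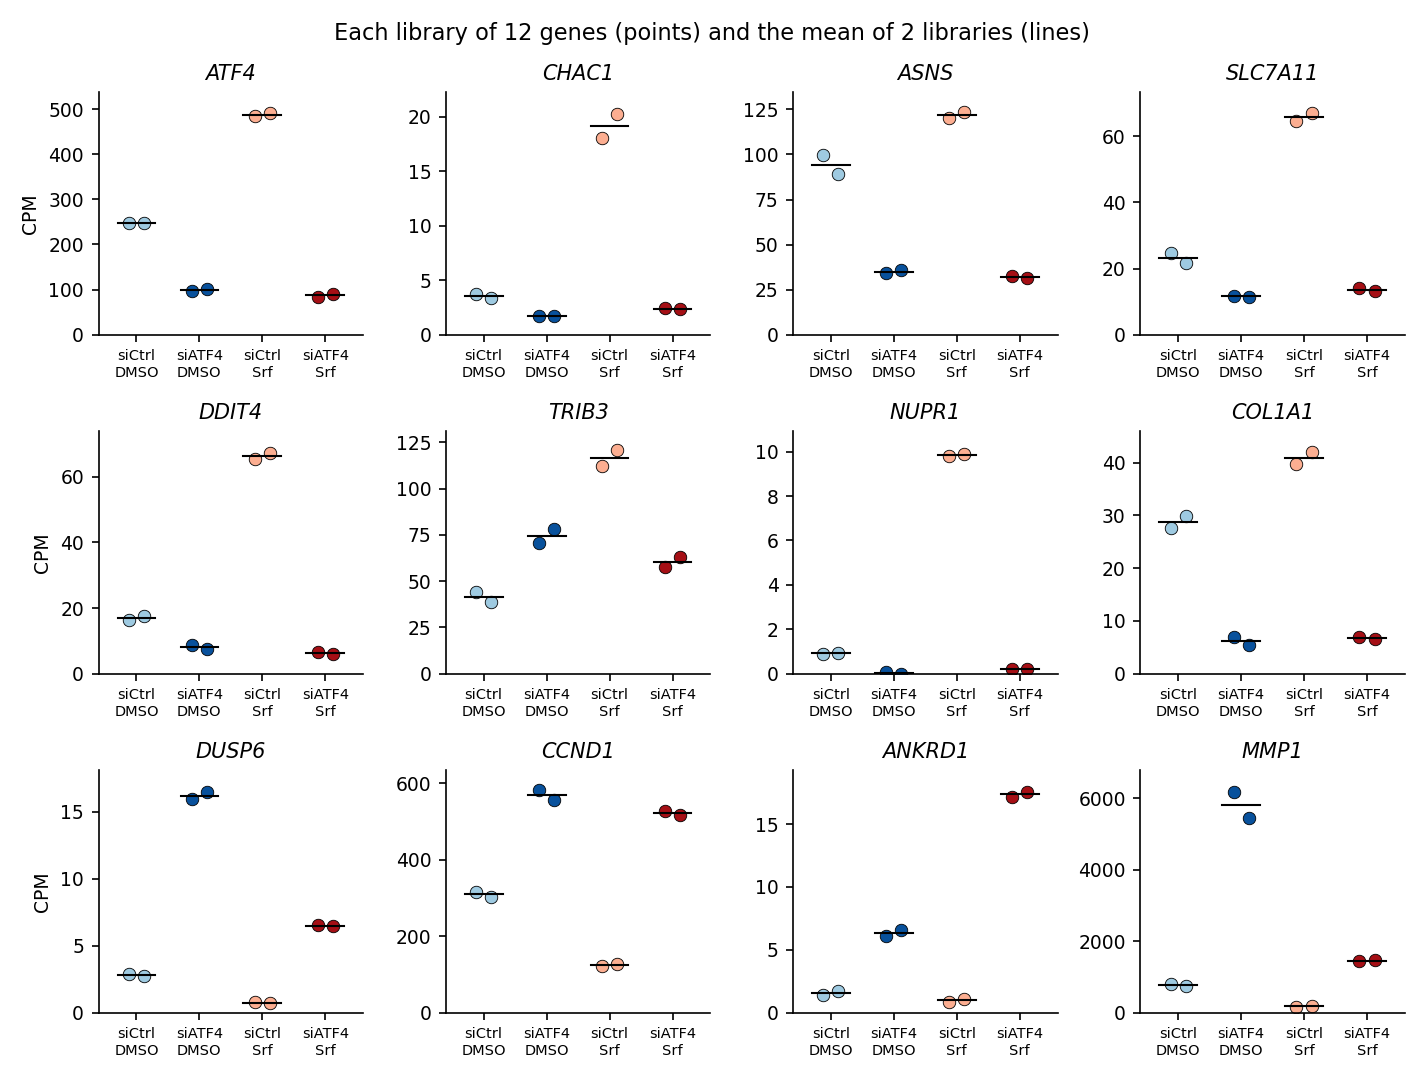
CPM (vertical axes, from 0) of 12 genes in every library of the siCtrl and siATF4 groups in DMSO and in Sorafenib (Srf); points are libraries and lines the means of 2. In *ATF4*, *CHAC1*, *SLC7A11*, *DDIT4* and *NUPR1* the siCtrl libraries with Sorafenib stand above the other 6, *TRIB3* is higher with siATF4 in DMSO and lower with siATF4 in Sorafenib, and *DUSP6*, *CCND1*, *ANKRD1* and *MMP1* are higher with siATF4 in both media.

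Glutathione and ferroptosis genes other than the carrier were called about as often as genes at large. Of 27 tested, 5 were lowered (18.5%) and 2 raised (7.41%), with a median of -0.08. *GGT1*, the surface enzyme that breaks down extracellular glutathione, had the deepest fall, from 21.5 and 21.2 CPM to 2.35 and 2.27 CPM (-2.96 ± 0.096, SE; limma, adjusted P = 4.18e-11). *MGST2* changed by -1.26 and *GPX8*, an ER peroxidase, by -0.90. Genes of glutathione synthesis were not lowered, with *GCLC* at 0.19, *GSS* at 0.17 and *GCLM* raised at 0.68. *GPX4*, the lipid peroxidase that guards against ferroptosis, had a change of -0.11, *AIFM2* (FSP1) of -0.05 and *ACSL4*, which supplies oxidizable lipids, of -0.16, none called.

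In iron handling, 3 of 17 genes were lowered (17.6%) and 2 raised (11.8%), near the 18.7% and 10.3% of all genes tested. Ferritin heavy chain *FTH1* changed by -0.65, from 869 and 870 to 560 and 551 CPM, and the iron-responsive regulator *IREB2* by -0.80, while the transferrin receptor *TFRC* rose by 0.68. *FTH1* has many processed copies in the genome, so reads may have been lost to unique mapping. Heme oxygenase *HMOX1* was at 89.9 and 95.7 CPM against 138 and 154 CPM (0.65 ± 0.094, SE), and at 0.57, short of the threshold, without the siATF4 library numbered 2.

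NRF2 targets, a set of antioxidant and detoxification genes controlled by another bZIP factor, were split in direction. Of 22 tested, 11 were lowered (50%) and 4 raised (18.2%), with a median of -0.48. Among the lowered ones were *SLC7A11*, counted above with the amino acid carriers too, and enzymes of NADPH supply and detoxification. *AKR1C3*, an aldo-keto reductase, was at 9.70 and 9.57 CPM against 0.493 and 0.343 CPM (-3.47 ± 0.13, SE; limma, adjusted P = 1.25e-10), although its near-identical relatives make the count uncertain and the change lay between -4.51 and -2.91 over all settings tried. The quinone reductase *NQO1* was at 187 and 180 CPM against 77.0 and 74.5 CPM (-1.27), and the export pump *ABCC2* changed by -1.06. *SRXN1* (1.04) and *OSGIN1* (0.86) rose along with *GCLM* and *HMOX1*. The mRNA of NRF2 itself, *NFE2L2*, had a change of -0.05 and was not called.

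Secreted stress factors moved in both directions, 4 of 10 lowered (40%) and 4 raised (40%). *ADM2*, a peptide of the calcitonin family, was at 24.0 and 26.6 CPM against 3.66 and 3.23 CPM (-2.71 ± 0.095, SE), and the angiogenic factor *VEGFA* was at 96.8 and 99.0 CPM against 44.6 and 45.7 CPM (-1.11). The stanniocalcin *STC1* rose from 6.67 and 6.66 CPM to 29.6 and 27.1 CPM (2.01), the cytokine *IL11* by 1.16 and *LIF* by 0.93. ER chaperones and folding enzymes were called at about the background rate, 5 of 24 lowered and 3 raised. The mannosidase-like *EDEM1* (-1.14) and the ubiquitin ligase adaptor *SEL1L* (-0.77), both of ER-associated degradation, were lowered, whereas the cochaperones *SDF2L1* (0.90) and *DNAJB11* (0.82) were raised. *HSPA5*, the main ER chaperone, had a change of -0.02.

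The 15 deepest falls, taken over genes that averaged 5 CPM or more, came largely from outside the amino acid response. *MUC16*, the cell surface mucin that carries the CA125 antigen, was at 106 and 138 CPM in siCtrl cells and at 6.98 and 4.71 CPM in siATF4 cells (-4.28 ± 0.25, SE; limma, adjusted P = 6.10e-09), the largest change in either direction among them. *CD24*, a surface glycoprotein used as a progenitor marker, was at 1021 and 918 CPM against 121 and 100 CPM (-3.13), with the caution that it has near-identical copies. *BMF*, a pro-apoptotic BH3-only protein, was at 38.5 and 37.0 CPM against 2.98 and 2.27 CPM (-3.62). The groups were separate in all 3 genes, which the choice of these 15 falls required.

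*PIK3IP1*, a negative regulator of PI3 kinase, changed by -3.46, from 27.5 and 27.3 to 1.93 and 2.14 CPM. The potassium channel *KCNJ16* changed by -3.49, the kinesin *KIF12* by -3.37, the methyltransferase *TMT1A* by -3.30, the tubulin glutamylase *TTLL6* by -3.14, the kinase *SGK2* by -3.08 and *SAMD11* by -3.00. The rest of the 15 are *NUPR1*, *AKR1C3*, *DDIT4*, the collagen *COL3A1* and the interferon-stimulated *IFIT1*, described with their groups.

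Of 24 collagens and collagen processing enzymes, 12 were lowered (50%, beside 18.7% of all genes tested), 1 raised (beside 10.3%) and 11 not called, with a median of -0.55. *COL3A1* was at 40.4 and 42.1 CPM against 3.91 and 3.72 CPM (-3.28 ± 0.078, SE; limma, adjusted P = 7.31e-12). *COL1A1* was at 39.8 and 42.0 CPM against 7.05 and 6.51 CPM (-2.51), *COL16A1* changed by -2.52 and *COL5A2* by -1.79. The basement membrane pair *COL4A1* (-0.31) and *COL4A2* (-0.02) was not called, and the crosslinking enzyme *LOX* rose by 1.19. Of the lowered chains named here, *COL3A1*, *COL1A1* and *COL5A2* are fibrillar chains, which mesenchymal cells secrete.

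Among integrins and laminins, 7 of 22 were lowered (31.8%), 2 raised (9.09%) and 13 not called, led by *LAMA5* (-1.79, from 268 and 294 to 82.3 and 79.8 CPM) and its epithelial receptor chain *ITGB4* (-1.77). *ITGB8* changed by -1.53 and *ITGA4* by -1.37. Of 20 TGF-β ligands, receptors and feedback genes, 7 were lowered (35%) and 1 raised (5%). *TGFB1* itself was at 103 and 106 CPM against 52.1 and 52.4 CPM (-0.99), and *SMAD6* changed by -1.04, *SKIL* by -0.92 and *TGFBR3* by -0.80. Of 25 actin cytoskeleton genes, 6 were lowered (24%) and 1 raised (4%). *ACTG1*, one of the most abundant transcripts, was at 8099 and 8163 CPM against 4251 and 4291 CPM (-0.93) while the near-identical *ACTB* had a change of 0.01, so the split of shared reads between them is a limit. *TAGLN* (-0.91), *MYL9* (-0.90) and *LIMA1* (-0.77) were lowered too.

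Matrix proteases and the plasminogen system were split between strong falls and strong rises, 9 of 18 lowered (50%) and 4 raised (22.2%). *MMP24* was at 23.4 and 22.4 CPM against 2.66 and 3.15 CPM (-2.79), and *MMP14*, the membrane-bound collagenase, at 18.6 and 18.7 CPM against 5.97 and 6.04 CPM (-1.56). The interstitial collagenase *MMP1* went the opposite way, from 175 and 196 CPM to 1449 and 1473 CPM (2.98 ± 0.12, SE; limma, adjusted P = 2.02e-10). The urokinase receptor *PLAUR* rose from 9.48 and 10.9 to 44.4 and 50.6 CPM (2.17), while its ligand *PLAU*, chosen after its values were seen, changed by -0.92.

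Cell identity markers were called in part, to be read beside 18.7% lowered and 10.3% raised over all genes tested. All 5 hepatocyte markers above the filter were lowered, among them the fibrinogen chains *FGB*, from 176 and 173 to 65.5 and 64.4 CPM (-1.42), and *FGG* (-1.37), and the urea cycle enzyme *CPS1* (-0.86). The other members above the filter averaged under 1 CPM over the 4 libraries. Genes that low pass the filter through the groups where they are high, so a fall among them is favoured by the filter. Under quantile normalization 4 of the 5 were lowered. Members under the filter could not be counted. Of 8 epithelial and biliary markers, 4 were lowered and 4 not called, and under quantile normalization 3 were lowered. E-cadherin, *CDH1*, was at 6.35 and 6.02 CPM against 0.379 and 0.150 CPM (-3.15, and between -4.51 and -2.51 over all settings tried), the secreted phosphoprotein *SPP1* changed by -1.64 and the biliary factor *SOX9* by -0.65. *KRT8* changed by -0.61, and by -0.56, short of the threshold, without the siATF4 library numbered 1. Of 9 mesenchymal markers, 4 were not called and 4 were lowered, *COL1A1*, *PDGFRB* (-2.08), *FN1* (-0.89) and *SNAI1* (-0.86), and *ZEB1*, named after its values were seen, rose by 0.81. The summed level of the 8 epithelial markers ranged from 3537 to 3657 CPM in siCtrl cells and from 2854 to 3038 CPM in siATF4 cells. *KRT8* made up most of it. That of the 9 mesenchymal markers fell as well, from 3171 and 3194 CPM to 2115 and 2129 CPM. *VIM*, which was not called, made up most of this sum.

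Interferon-stimulated genes, the antiviral program that interferons turn on, fell with no exception among the calls. Of 24 tested, 15 were lowered (62.5%) and none raised, 23 had a change below 0, and the median was -0.83. *IFIT1* was at 13.0 CPM in each siCtrl library and at 1.18 and 1.09 CPM in siATF4 cells (-3.05 ± 0.096, SE; limma, adjusted P = 3.59e-11). *IRF9*, the DNA-binding subunit of the interferon-activated complex, was at 38.4 CPM in each siCtrl library and at 15.04 and 15.2 CPM in siATF4 cells (-1.31), and *IFI35* changed by -1.38. *OAS2* changed by -1.19, with levels under 2 CPM. The list's summed level fell from between 701 and 721 CPM to between 446 and 461 CPM. Quantile normalization moved the median to -0.61 without turning its direction, and 12 of the 24 were then lowered.

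Of 31 cholesterol and fatty acid synthesis genes, 8 were lowered (25.8%) and 1 raised (3.23%), with a median of -0.25. The transcription factor *SREBF1* was at 225 and 230 CPM against 85.6 and 85.0 CPM (-1.41 ± 0.064, SE). The desaturase *SCD*, which makes monounsaturated fatty acids, was at 725 and 712 CPM against 302 and 271 CPM (-1.33). The elongase *ELOVL6* rose by 1.09. *FASN*, fatty acid synthase, had a change of 0.27 and was not called. Of 28 autophagy genes, 3 were lowered (10.7%) and 2 raised (7.14%), both under the shares of all genes tested. *TFEB*, the master factor of lysosomal genes, was at 33.9 and 34.9 CPM against 9.12 and 9.63 CPM (-1.82), *GABARAPL1* changed by -0.90 and *OPTN* by -0.65, and *ATG12* rose by 0.70.

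**Figure D3:**
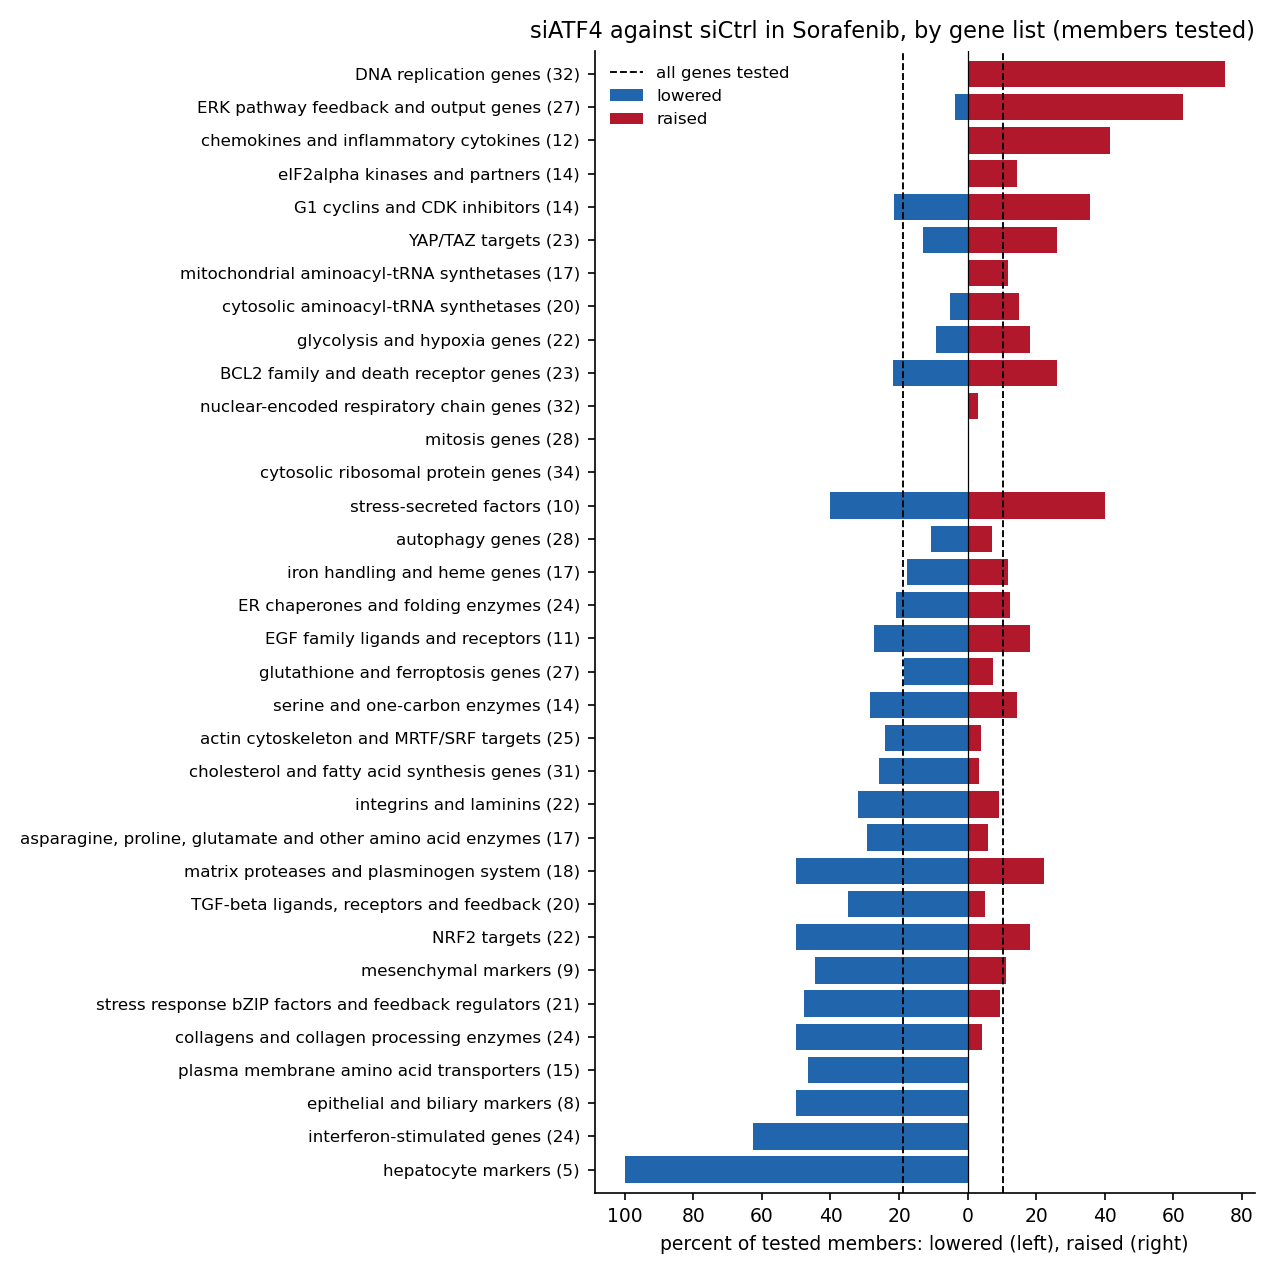
Percent of tested members lowered (blue, left) and raised (red, right) by siATF4 in Sorafenib in each list with at least 5 tested members, with the number tested in brackets; dashed lines are the 18.7% and 10.3% of all genes tested. DNA replication genes (75.0% raised) and outputs of the ERK pathway (63.0% raised) lie far to the right, and interferon-stimulated genes (62.5% lowered) far to the left.

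Most outputs and feedback inhibitors tested of the ERK kinase pathway rose. The pathway carries growth factor signals through RAF, one of the kinases Sorafenib was made to inhibit, and its output genes are induced within minutes to hours of activation. Of 27 tested, 17 were raised (63.0%) against 10.3% of all genes tested and 1 was lowered, with a median of 0.85. *DUSP5*, a nuclear ERK phosphatase, was at 13.7 and 13.9 CPM in siCtrl cells and at 117 and 121 CPM in siATF4 cells (3.07 ± 0.074, SE; limma, adjusted P = 7.48e-12). *DUSP6*, its cytoplasmic counterpart, was at 0.786 and 0.712 CPM against 6.52 and 6.46 CPM (2.49).

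The Sprouty inhibitor *SPRY4* was at 0.585 and 0.611 CPM against 8.61 and 9.55 CPM, a change of 3.12 that lay between 2.66 and 3.93 over all settings tried. The ETS factor *ETV5* was at 2.04 and 2.32 CPM against 12.6 and 11.8 CPM (2.25). *FOSL1*, a subunit of the AP-1 complex chosen after its values were seen, was at 80.8 and 86.8 CPM against 337 and 348 CPM (2.03). The lowered member was the AP-1 subunit *JUNB*, at -0.64, or -0.55 without the siATF4 library numbered 1. Immediate early *FOS* (0.51) and *EGR1* (0.46) were not called.

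Of 11 ligands and receptors of the EGF family, 2 were raised (18.2%) and 3 lowered (27.3%), 8 had a change below 0 and the median was -0.20. *HBEGF*, a ligand of the EGF receptor, was at 4.94 and 5.19 CPM against 24.2 and 25.6 CPM (2.19), whereas the receptors *ERBB2* (-0.71) and *ERBB3* (-0.70) were lowered and *EGFR* had a change of -0.03. Of 12 chemokines and cytokines tested, 5 were raised (41.7%) and none lowered, and under quantile normalization 9 were raised. *TNFAIP3*, a feedback inhibitor of NF-κB, was at 2.56 and 2.20 CPM against 5.82 and 4.60 CPM (0.98). *CXCL2* was at 0.665 and 1.22 CPM against 1.74 and 2.33 CPM (0.83), and at 0.55, short of the threshold, without the siCtrl library numbered 1.

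YAP/TAZ targets, read by TEAD factors, were split, with 6 of 23 raised (26.1%, beside 10.3% of all genes tested), 3 lowered (13.0%, beside 18.7%) and 14 not called. *ANKRD1* was at 0.887 and 1.119 CPM in siCtrl cells and at 17.2 and 17.6 CPM in siATF4 cells, the largest rise among genes of at least 5 CPM (3.58 ± 0.15, SE; limma, adjusted P = 2.21e-10), and its size lay between 3.20 and 4.12 over all settings tried. The matricellular *CCN2*, also called CTGF, was at 11.2 and 12.2 CPM against 71.2 and 81.8 CPM (2.66) and *CCN1*, or CYR61, at 179 and 204 CPM against 460 and 481 CPM (1.30). The ectonucleotidase *NT5E* rose by 2.26. *AMOTL2* (0.30), *LATS2* (0.35) and *AXL* (0.49) were not called, and neither were *YAP1* (0.00) and *WWTR1* (-0.09), the genes of YAP and TAZ. *MAFF*, a small bZIP partner of NRF2, rose by 2.76, the nuclear receptor-interacting *NRIP3* by 2.69, the sphingosine kinase *SPHK1* by 2.58 and *SH2D5* by 2.24. *CD68* rose by 1.40, from 22.8 and 23.3 to 61.3 and 62.1 CPM, while 9 other leukocyte and endothelial markers, were at no more than 0.644 CPM in any of the 12 libraries, *PTPRC* at no more than 0.0379 and *PECAM1* at no more than 0.0403 CPM.

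Promoters of the 3 strongly raised genes below are shown because they hold TGANTCA, in capitals, which reads the same on both strands. This is a loose form of the AP-1 core, which is TGAGTCA or TGACTCA. *SPHK1* and *PLAUR* hold TGAGTCA, while *ANKRD1* holds TGATTCA, which is outside that core. They come from the same RefSeq table on GRCh38.p14: *ANKRD1* (chr10:90921256-90921302, minus strand, 195 bases before the start), *SPHK1* (chr17:76383178-76383224, plus strand, 6 bases before) and *PLAUR* (chr19:43670329-43670375, minus strand, 186 bases before).
ANKRD1: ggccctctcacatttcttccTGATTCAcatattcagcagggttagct
SPHK1: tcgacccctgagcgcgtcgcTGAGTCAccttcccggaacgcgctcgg
PLAUR: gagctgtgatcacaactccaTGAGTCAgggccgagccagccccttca

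The loose form TGANTCA was in 4.30% of the promoters of genes tested and in 7.76% of all promoters of the table. It was in 4.58% of those of lowered genes and in 5.60% (61 of 1090) of those of raised genes. Its share was higher among the larger rises, 11.1% (24 of 216) at a change of at least 1 and 22.2% (4 of 18) at a change of at least 2. Of these 4, *SPHK1* and *PLAUR* held TGAGTCA, and *ANKRD1* and *HDAC9* held TGATTCA, so the shares do not count the AP-1 core alone. The TEAD core GGAATG was in 10.8% of tested promoters, 11.7% of those of raised genes and 11.0% of those of lowered genes. By size of the rise the TEAD share was 12.5% (27 of 216) at a change of at least 1 and 22.2% (4 of 18) at a change of at least 2, the same count as for TGANTCA. These shares are descriptions of 300 base windows and were not tested.

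Most genes tested of DNA replication rose. Of 32 tested, 24 were raised (75.0%) and none lowered, 31 had a change above 0, and the median was 0.79. *CDC45*, which forms the active replicative helicase with the MCM and GINS proteins, was at 16.9 and 17.3 CPM in siCtrl cells and at 55.3 and 55.5 CPM in siATF4 cells (1.67 ± 0.078, SE; limma, adjusted P = 7.56e-10). *MCM10*, an initiation factor, was at 33.2 and 34.6 CPM against 82.3 and 83.8 CPM (1.28). *E2F1*, which drives these genes at the G1 to S transition, was at 81.7 and 90.8 CPM against 194 and 204 CPM (1.20), and the origin subunit *ORC6* changed by 1.13.

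The helicase genes *MCM2* to *MCM7*, chosen after their values were seen, rose by 0.76 to 1.08. Mitosis genes did not follow. None of 28 was called in either direction by limma, by edgeR or by DESeq2, 15 of them had an unadjusted P under 0.05 at a change too small to be called, 1 was lowered without the siATF4 library numbered 1, and the median was 0.00, with *MKI67* at 0.48, *PLK1* at 0.01 and *CDC20* at -0.15. The summed level of the replication genes was 3401 and 3580 CPM in siCtrl cells and 5576 and 5667 CPM in siATF4 cells, and that of the mitosis genes 5261 and 5235 CPM against 5601 and 5458 CPM.

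Regulators of the G1 phase moved in opposing directions. Cyclin D1, *CCND1*, was at 121 and 127 CPM against 528 and 517 CPM (2.07 ± 0.077, SE; limma, adjusted P = 1.02e-10) and cyclin E2, *CCNE2*, rose by 1.24. The inhibitor *CDKN1A*, or p21, rose as well, from 6.81 and 7.59 to 37.2 and 39.6 CPM (2.34), and so did *GADD45A*, a stress gene of growth arrest, from 18.02 and 20.4 to 104 and 108 CPM (2.44). The inhibitor *CDKN2B*, or p15, changed by -1.08. In all, 5 of 14 genes of this list were raised (35.7%) and 3 lowered (21.4%).

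Of 23 genes of the BCL2 family and the death receptors, 6 were raised (26.1%), 5 lowered (21.7%) and 12 not called. Among the lowered genes were the pro-apoptotic *BMF*, as described, and *BCL2L11*, or BIM, which went from 10.5 and 9.99 to 5.14 and 4.26 CPM (-1.05). Lowered too were the pro-survival *BCL2L2*, the decoy receptor *TNFRSF10C* and the pro-apoptotic *BBC3*, chosen after their values were seen. Each of these fell short of the threshold when 1 library was left out. The inhibitor of apoptosis *BIRC3* rose from 23.1 and 22.2 to 114 and 110 CPM (2.27) and the decoy receptor *TNFRSF10D* by 1.19. *MCL1* (-0.47), *BAX* (0.35) and the TRAIL receptor *TNFRSF10B* (0.46) were not called. Glycolysis and hypoxia genes were mostly not called, 2 of 22 lowered (9.09%) and 4 raised (18.2%). Hexokinase *HK2* rose from 12.2 and 12.3 to 64.9 and 63.9 CPM (2.35), the enolase *ENO2* by 1.03, and *PFKFB4* (-1.13) and *NDRG1* (-0.78) were lowered. The list's median was -0.02 and turned to 0.02 under quantile normalization.

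The housekeeping groups moved little. None of 34 cytosolic ribosomal protein genes was called by limma, edgeR or DESeq2, 24 of them having an unadjusted P under 0.05 (median 0.16, range -0.36 to 0.43), and of 32 nuclear-encoded respiratory chain genes 1 was raised, *CYC1* at 0.59, which fell to 0.53 and 0.54 without either of 2 libraries, the siATF4 one numbered 2 and the siCtrl one numbered 1.

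The same knockdown in DMSO shows which changes were also present without Sorafenib, and its libraries are not those compared above. Both comparisons come from 1 fit over all 12 libraries, so they share the estimate of spread and the filter. Their calls are therefore not fully independent. In DMSO, 1910 of the 13515 genes tested were lowered and 1158 raised, the background for all counts of calls in DMSO given below. Of the genes lowered by siATF4 in Sorafenib, 59.3% (1497) were also lowered in DMSO, 40.3% were not called there and 11 were raised. Of the genes raised, 46.5% (644) were also raised in DMSO and 1 was lowered. Across all genes tested, the changes in both media had a Pearson r of 0.80, a description over genes, which are not independent replicates. The fall of *COL3A1* (-3.28 in Sorafenib and -3.25 in DMSO), of *BMF* (-3.62 and -3.48) and of *PHGDH* (-2.17 and -2.12), and the rise of *DUSP5* (3.07 and 2.90), *MMP1* (2.98 and 2.91) and *HK2* (2.35 and 2.31), were of similar size in both media, and the adjusted P of the difference (limma) was at least 0.24 in each. The standard errors of these differences ran from 0.086 for *PHGDH* to 0.185 for *BMF*, so smaller differences cannot be told from none.

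Tested directly, the effect of siATF4 differed between Sorafenib and DMSO in 5553 genes (41.1%) at an adjusted P under 0.05, being more negative in Sorafenib in 21.8% of genes and more positive in 19.3%. The stress regulators were among the more negative, 16 of 21, with 1 more positive. *CHAC1* changed by -2.76 in Sorafenib and -0.87 in DMSO, *DDIT4* by -3.29 and -1.03 and *SLC7A11* by -2.23 and -0.97. Sorafenib-treated siCtrl cells held 19.1 ± 1.6 CPM of *CHAC1* (SD, n = 2) and vehicle-treated siCtrl cells 3.55 ± 0.22 CPM, while the siATF4 groups lay at 2.40 ± 0.036 and 1.72 ± 0.023 CPM.

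*TRIB3* and *SESN2* of the stress list, and *GDF15* of the secreted factors, were called in opposite directions in the media. *TRIB3* was raised in DMSO, from 44.1 and 38.5 to 70.5 and 78.0 CPM (0.84), and lowered in Sorafenib (-0.94), and *SESN2* (1.25 and -0.64) and the secreted growth factor *GDF15* (0.86 and -0.85) did the same. *DDIT3* rose in DMSO from 26.2 and 25.3 to 108 and 107 CPM (2.04), and *CEBPB* from 24.9 and 28.0 to 130 and 123 CPM (2.24), where in Sorafenib neither was called. The summed level of the 21 stress regulators was 634 and 625 CPM in siCtrl cells and 1057 and 1073 CPM in siATF4 cells with DMSO, against 986 and 998 CPM and 868 and 901 CPM with Sorafenib. The siATF4 libraries were thus the higher ones in DMSO and the lower ones in Sorafenib.

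**Figure D4:**
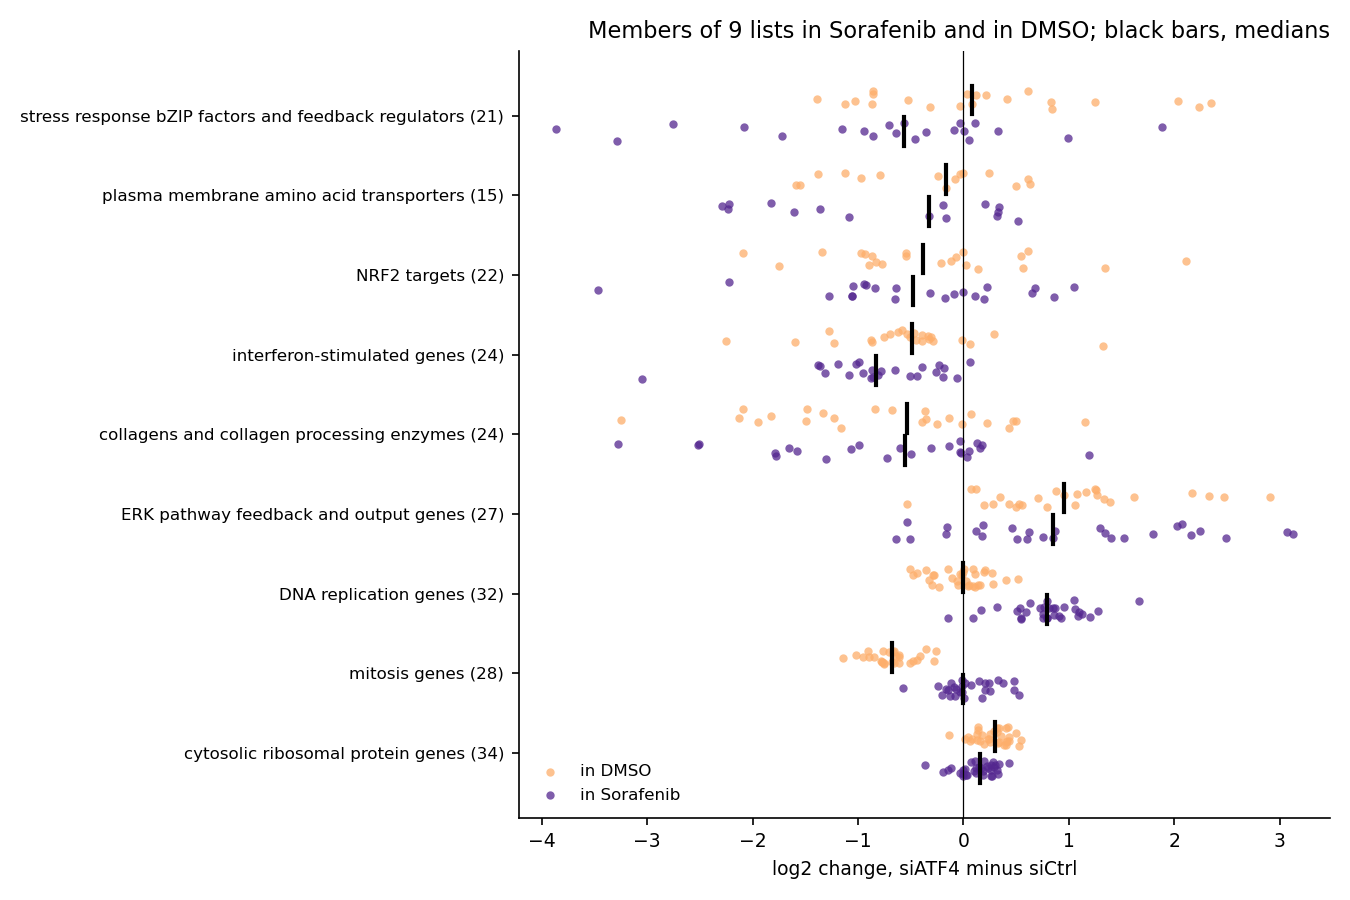
Log2 change (siATF4 minus siCtrl, horizontal axis) of each tested member of 9 lists in DMSO (orange) and in Sorafenib (purple), with medians as black bars and the number of members in brackets. The stress regulators lie lower in Sorafenib (median -0.57) than in DMSO (0.08), and replication and mitosis genes lie higher in Sorafenib (0.79 and 0.00) than in DMSO (0.00 and -0.68).

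The cell cycle groups differed as a block. The effect of siATF4 was more positive in Sorafenib than in DMSO in 31 of 32 replication genes and in all 28 mitosis genes, and more negative in none, against 19.3% more positive over all genes tested. In DMSO no replication gene was called and 21 of 28 mitosis genes were lowered. The summed level of the replication genes was 6047 and 6046 CPM in siCtrl cells and 5713 and 5788 CPM in siATF4 cells with DMSO, so that of the 4 groups the siCtrl libraries with Sorafenib, at 3401 and 3580 CPM, were the low ones. For the mitosis genes the siCtrl libraries with DMSO, at 7893 and 8163 CPM, were the high ones, and the siATF4 libraries with DMSO held 5127 and 5187 CPM.

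ERK outputs were raised in 17 of 27 cases in each medium, with medians of 0.85 in Sorafenib and 0.96 in DMSO. Their summed level was 1740 and 1696 CPM in siCtrl cells and 3321 and 3327 CPM in siATF4 cells with DMSO, and 1106 and 1159 CPM against 2380 and 2406 CPM with Sorafenib, lower with Sorafenib under either siRNA. *CCND1* was among the genes with a larger rise in Sorafenib (2.07 against 0.88), and in siCtrl cells its level was 124 ± 4.12 CPM with Sorafenib and 309 ± 9.55 CPM with DMSO (SD, n = 2). *HMOX1* rose less in Sorafenib than in DMSO (0.65 against 2.11), as did *IL11* (1.16 against 2.72).

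**Figure D5:**
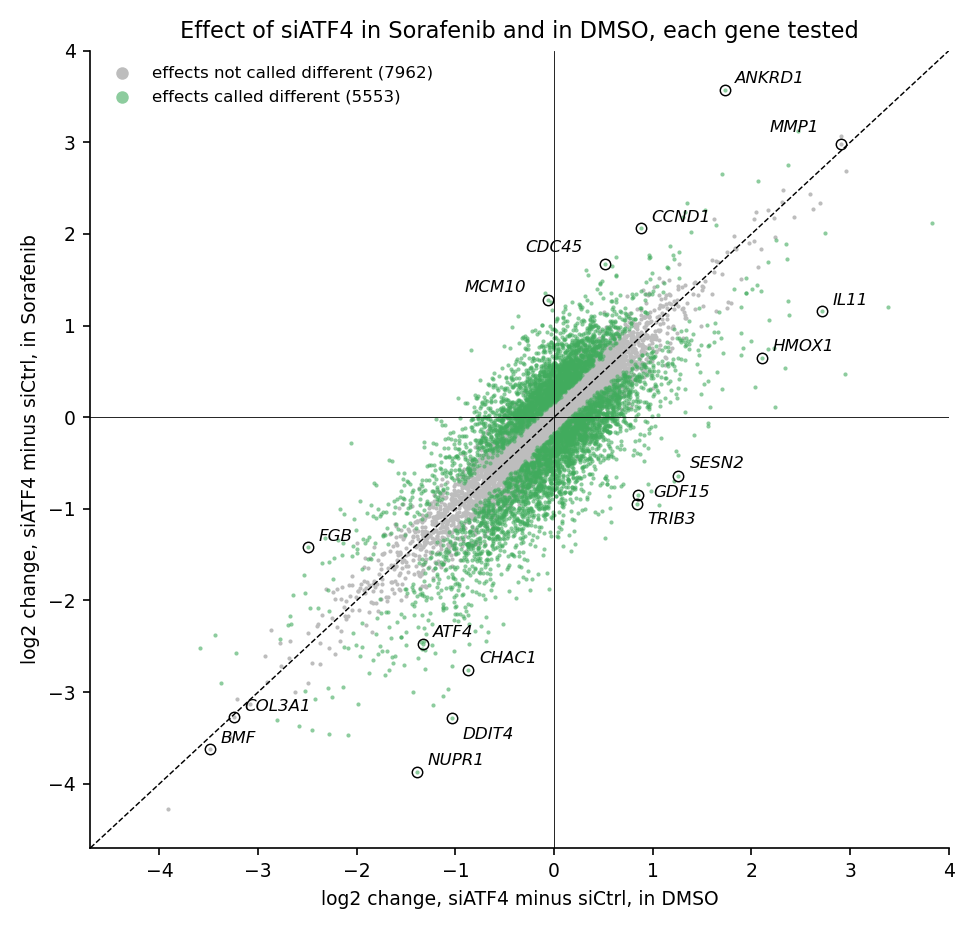
Log2 change with siATF4 in Sorafenib (vertical axis) against that in DMSO (horizontal axis) for each gene tested, in green where the effects differed at an adjusted P under 0.05 (5553 genes); the dashed line marks equal effects. *TRIB3*, *SESN2* and *GDF15* lie in the lower right part, *NUPR1*, *DDIT4* and *CHAC1* far below the line, *ANKRD1*, *CCND1*, *CDC45* and *MCM10* above it, and *COL3A1*, *BMF* and *MMP1* on or near it.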

How the data were processed

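The deposited table held CPM values, one column for each of 12 libraries in 6 groups. According to the study's methods, the authors mapped reads to hg19 with STAR, kept unique hits and counted them over exons of RefSeq mRNAs with QuasR. The deposited CPM columns each sum to the same total, and how that scaling was done is not given there. The mapper and the build are also in the submitters' processing notes. Aligner version and strand setting of the counting are not given in the sources used here. All values were whole multiples of 1 read (100% within 0.01 read), so reads per library were recovered for the count tests.

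Of 26258 genes, 13515 had at least 1 CPM in at least 2 libraries. Log2(CPM + 0.5) was fitted with limma-trend (R 4.3.3, limma 3.58.1) over all 12 libraries with 1 coefficient per group, and P values were adjusted by Benjamini and Hochberg over all genes tested. edgeR 4.0.16 (quasi-likelihood test) and DESeq2 1.42.0 on the recovered reads, pseudocounts of 0.1 and 1, no filter, a filter at 5 CPM, TMM and quantile scaling, a fit of the 4 libraries alone, the replicate block and leaving out each library were the alternatives. The procedure was tested on simulated data. Plots were drawn in matplotlib 3.10.9 and tables built in pandas 2.3.3, both under Python 3.11.15.

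Named genes were *ATF4*, *SLC7A11*, *CHAC1* and *ATF3*, the 15 largest falls and the 15 largest rises with separate groups and a mean of at least 5 CPM, and in each of 35 lists the 4 largest called changes with a mean of at least 1 CPM, 132 genes in all. The comparison, its gene lists and this rule were chosen with earlier results of these data known. Same-numbered libraries were checked for pairing, and the correlations of their deviations from the group means ranged from -0.282 to 0.193, so the numbers were not used as pairs. Libraries held 41408348 to 53619732 reads on genes. A few of the named genes are not reported here.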

Additional observations from a re-analysis of the deposited data

Results flagged for a closer look

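For 86 of the 132 named genes the effect of siATF4 differed between Sorafenib and DMSO at an adjusted P under 0.05 (limma, interaction term, Benjamini-Hochberg), beside 41.1% of all genes tested. Most named genes were chosen for large changes in Sorafenib, which are part of this difference. A higher share among them is therefore favoured by the choice and is no result about these genes. The 20 with a difference of at least 1 on the log2 scale are given here, as the change in Sorafenib minus that in DMSO. Falls deeper in Sorafenib were those of *NUPR1* (-2.48), *DDIT4* (-2.25), *CDH1* (-1.91), *CHAC1* (-1.89), *ADM2* (-1.68), *AKR1C3* (-1.38), *SLC7A11* (-1.26), *PIK3IP1* (-1.18), *TTLL6* (-1.15), *ATF4* itself (-1.14) and *CBS* (-1.10). *SOX9* was raised in DMSO and lowered in Sorafenib (-1.27). Rises smaller in Sorafenib were those of *IL11* (-1.56), *HMOX1* (-1.46) and *CXCL2* (-1.16).

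Rises larger in Sorafenib were those of *ANKRD1* (1.84), *MCM10* (1.34), *CCND1* (1.19) and *CDC45* (1.15), of which *MCM10* and *CDC45* were not called in DMSO. *FGB* fell less in Sorafenib than in DMSO (1.07). In DMSO the siCtrl level of *NUPR1* was 0.877 and 0.954 CPM and that of *CDH1* 0.653 and 0.954 CPM, close to the pseudocount, which limits the change that could be measured there.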

How the results depend on the processing

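The counts of lowered and raised genes stayed within 1.5 times of 2525 and 1386 under other pseudocounts, filters, scalings and tools, from 1911 to 2742 lowered and from 1224 to 1903 raised. A change of at least 1 left 1189 lowered and 295 raised genes (80.1% lowered), by construction. Leaving out 1 library gave 2490 to 2571 lowered and 1393 to 1417 raised genes, and 4351 to 4806 genes with a difference between Sorafenib and DMSO, against 5553. With the replicate number as a block the counts were 2525, 1386 and 5456, and the block changed no call of a named or listed gene. The stricter ATF4 element was in 0.668% of the promoters of lowered genes, against 2.06%, since fewer letters may vary. Of 268 called genes that are named or listed, 18 lost the call under quantile normalization, 6 with a pseudocount of 1, and 1 each with TMM, edgeR and DESeq2, and none changed direction. Leaving out a library ended the call of 27 of them, 6 of the 132 named by the rule: *CXCL2*, *CYC1*, *KRT8*, *HMOX1*, *CARS1* and *CARS2*. With 2 libraries per group in 1 cell line, the spread rests on few values, and changes near 0.58 or in genes under 1 CPM are the least certain.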

Other observations

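Several gene families outside the lists were picked after their values were seen, so they are given without a test, beside 18.7% lowered and 10.3% raised over all genes tested. Of 9 HLA genes, which present antigens, 5 were lowered and none raised (median -0.77). *HLA-B* was at 36.2 and 38.2 CPM in siCtrl cells and at 10.8 and 12.3 CPM in siATF4 cells, both with Sorafenib (-1.65), although HLA genes resemble each other and unique mapping may lose reads. Of 14 semaphorins, guidance cues, 8 were lowered and none raised, *SEMA3F* from 79.3 and 80.6 to 14.1 and 13.2 CPM (-2.51).

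Of 25 host genes of small nucleolar RNAs, 10 were raised and none lowered, with medians of 0.42 in Sorafenib and 0.74 in DMSO. *SNHG15* was at 17.1 and 17.5 CPM against 61.8 and 72.0 CPM (1.92) and *GAS5* at 97.2 and 96.8 CPM against 232 and 239 CPM (1.27). Of 23 centromere protein genes 10 were raised and none lowered, and of 10 Fanconi anaemia genes, which repair crosslinked DNA, 5 were raised and 1 lowered. Of 25 histone genes, 13 were lowered and 2 raised (median -0.58, and 0.10 in DMSO). Most histone mRNAs lack a poly(A) tail and their copies are near-identical, so poly(A) libraries measure them poorly.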
